A study of Mus musculus with 12 samples.

Results

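Osteoclasts that carried both a Notch2 mutation and a deletion of Hes1 were compared with osteoclasts that carried neither. Osteoclasts are the multinucleated cells of the macrophage lineage that dissolve bone. All 3 libraries labelled Notch2 mutant with Hes1 deletion (called double-altered here) were set against all 3 labelled wild type with Hes1 loxP (called control), which is 6 of the 12 libraries of the series. The control cells were wild type for Notch2, and their Hes1 gene carried loxP sites, the sequences at which the recombinase Cre cuts. The double-altered cells carried the Notch2 mutation, and their Hes1 gene was deleted. The other 6 libraries carried 1 alteration each, 3 the Notch2 mutation with Hes1 loxP and 3 the Hes1 deletion in wild type cells. They entered the same fit and were used to place the double-altered cells beside each single alteration. All mice were male and 7 to 8 weeks old, and experimental and control mice were littermates, per the labels. Marrow macrophages were grown with the growth factor M-CSF (30 ng/ml), and from day 3 the cytokine RANKL was given with it for 4 days. The sources used here do not give the nature of the Notch2 mutation, the recombinase used to delete Hes1 and its promoter, or the number of mice behind each culture. The p-values below therefore measure the spread between cultures that the labels call biological replicates.

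Notch2 is a cell surface receptor. When a ligand on a neighbouring cell binds it, its inner part is cut free, enters the nucleus and joins the DNA-binding protein RBPJ to switch genes on. Hes1 is a classic gene of this kind and encodes a repressor that binds short DNA elements called N boxes. RANKL drives macrophages to fuse into osteoclasts through the transcription factor Nfatc1, and mature osteoclasts secrete acid and cathepsin K, the protease that digests bone collagen.

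The 6 libraries held 13873032 to 19293772 counts assigned to genes. Levels are given as CPM, a gene's count scaled to the library total of these counts. CPM does not correct for gene length and is compared between samples, not between genes. Osteoclast markers were present throughout. Acp5 (tartrate-resistant acid phosphatase) stood at 7182, 6878 and 7440 CPM in the control and at 8414, 7855 and 8925 CPM in the double-altered libraries. The fusion gene Dcstamp was at 401 ± 32.3 CPM (SD, n = 3) and 438 ± 13.5 CPM (SD, n = 3), and the calcitonin receptor gene Calcr at 28.4 ± 2.08 CPM and 26.9 ± 1.48 CPM (SD, n = 3 each). None of these 3 genes was called in the test described below.

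Hes1 (ENSMUSG00000022528, GRCm38 chromosome 16, 30064384 to 30067796) was scarce in the control and scarcer in the double-altered cells. Its level was 0.432, 0.570 and 0.334 CPM in the control libraries, 23 counts in all, and 0, 0.0602 and 0.0623 CPM in the double-altered libraries, 2 counts in all. The lowest control library lay above the highest double-altered one. The ratio of the summed levels was 0.0941, with a 95% exact binomial counting interval of 0.0108 to 0.381 that covers counting error only. The two-sided exact permutation test over the 6 libraries gave p = 0.10, the smallest that 3 libraries against 3 allow. The Notch2 mutant libraries with Hes1 loxP held 7 counts. Relative to them the double-altered ratio was 0.30 (counting interval 0.0304 to 1.57), so a difference between those groups was not detectable at this depth. Notch2 (ENSMUSG00000027878, chromosome 3, 98013527 to 98150361) was at 166 ± 6.67 CPM in the control and 169 ± 6.92 CPM in the double-altered libraries (SD, n = 3 each). Its log2 fold change was 0.02 ± 0.06 (SE, edgeR adjusted p = 0.951), and since the site of the mutation is not given, its summed count does not check the label.

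Over all genes tested, the double-altered libraries lay little farther from the control libraries than control libraries lay from each other. The root mean square difference in log2 CPM between a control and a double-altered library had a median of 0.354 over 9 pairs (0.328 to 0.378), against 0.343 over the 3 control pairs (0.314 to 0.346) and 0.332 over the 3 double-altered pairs (0.325 to 0.344). The ranges of the first and the other 2 overlapped. Over the 500 genes with the largest variance the control to double-altered distances (0.983 to 1.13) lay wholly above those of the control pairs (0.877 to 0.951), and overlapped those of the double-altered pairs (0.936 to 1.01). Double-altered libraries were at a median distance of 0.330 (0.322 to 0.363) from the wild type Hes1 deletion libraries, over 9 pairs. Their median distance from the Notch2 mutant Hes1 loxP libraries was 0.345 (0.335 to 0.363), also over 9 pairs, and these ranges overlapped.

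In double-altered osteoclasts 21 genes changed, and 19 of them were lower. They included the protease gene Ctsk, several genes of macrophages (Stab1, Cd36, Clec4d, Ccl6), genes of neutrophil granules (Ngp, Camp) and the matrix gene Thbs2. The 2 higher genes, Celf3 and Hist1h2al, were close to absent in the control. Genes were tested with the quasi-likelihood test of edgeR on all 12 libraries, which compares group means of counts with a spread estimated over the 4 groups. A gene is called where its p, adjusted by the Benjamini-Hochberg method over all genes tested, is under 0.05. Of the 13403 genes tested, 0.157% were called, 0.0149% higher and 0.142% lower. An unadjusted p under 0.05 was found for 8.43%, and 50.7% had a log2 fold change above 0. All 21 had groups that did not overlap, a property that 7.87% of all genes had with the double-altered libraries higher and 6.37% with them lower. Most changes were small. Of the 19 lower genes, 17 had a log2 fold change of less than 1 in size. The count depends on the libraries that set the spread. With only the 6 libraries compared 71 genes were called, 8 higher and 63 lower, including all 21. Without wild type Hes1 deletion replicate 3, 63 were called, again including all 21, and 55 genes were called in both of these fits. The plot of change against mean level shows the called genes among all genes tested.

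**Figure D1:**
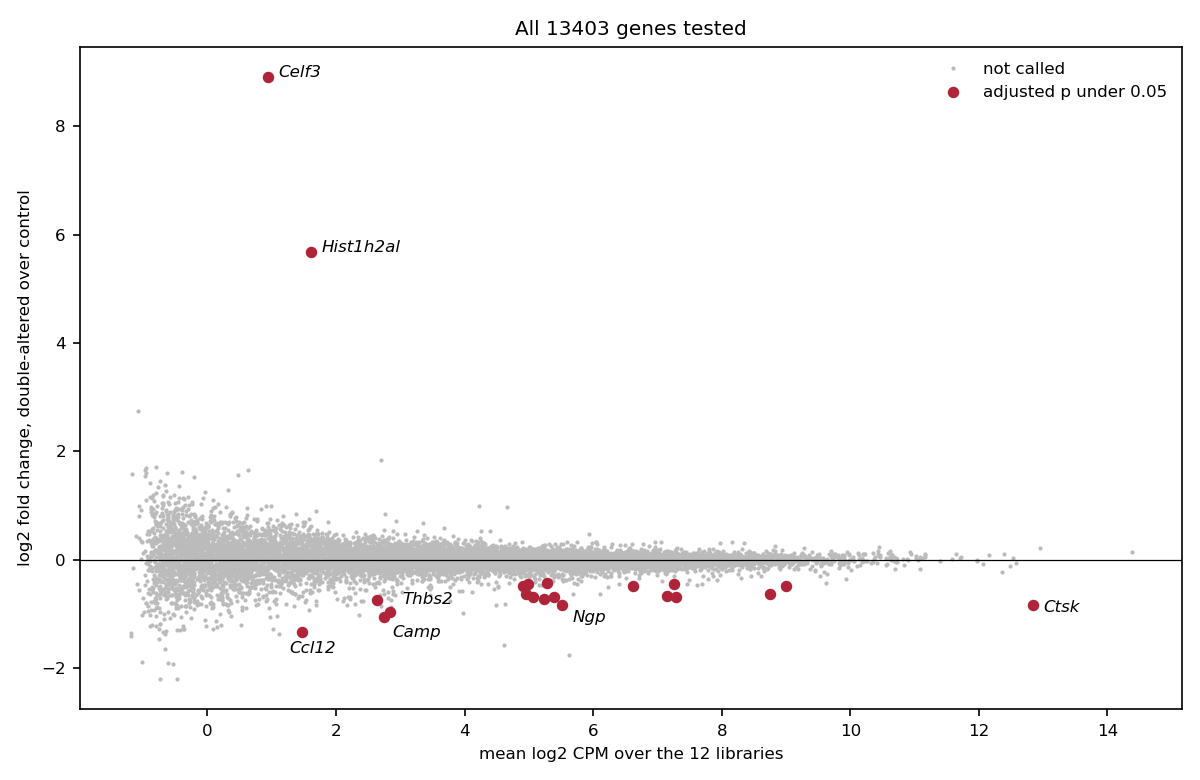
Each point is 1 of the 13403 genes tested. The x axis is the mean log2 CPM over the 12 libraries, and the y axis is the edgeR log2 fold change of double-altered over control libraries. Red points have an adjusted p under 0.05. Celf3 and Hist1h2al lie far above 0 at low levels, Ctsk lies at -0.84 near the right end, and the other red points lie between -1.34 and -0.43.

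Ctsk (ENSMUSG00000028111, chromosome 3, 95499256 to 95509362) encodes cathepsin K, the main collagen-digesting enzyme of osteoclasts. Its level was 8820, 9020 and 9237 CPM in the control and 4973, 4876 and 5294 CPM in the double-altered libraries. The groups were far apart next to their spread, and the double-altered mean was 55.9% of the control mean. The log2 fold change was -0.84 ± 0.07 (SE), with an edgeR adjusted p of 3.24e-06, and Ctsk was called under all 20 alternative settings in which it was tested. Ctsk was low in both Hes1 deletion groups. The recombinase behind the deletion is not named in the sources used here, and its part in these levels was not tested. Wild type Hes1 deletion libraries were at 50.8% and Notch2 mutant Hes1 loxP libraries at 118% of the same control mean. Between the Notch2 mutant groups the step to the Hes1 deletion gave a log2 fold change of -1.11 (edgeR adjusted p = 8.89e-08), and between the Hes1 deletion groups the step to the Notch2 mutant gave 0.15 (edgeR adjusted p = 0.744). Ctss, which encodes the macrophage protease cathepsin S and starts 27.5 kb from Ctsk (chromosome 3, 95526786 to 95556403), was also called. It was at 731, 585 and 543 CPM in the control and 488, 408 and 435 CPM in the double-altered libraries, without overlap (log2 fold change -0.49 ± 0.09, edgeR adjusted p = 0.0325). These were the 2 called genes of 13 lysosomal cathepsin genes tested, of which 9 had negative values. Of all genes tested 0.142% were called lower. Ctsl (cathepsin L) was at -0.43 ± 0.09 with an edgeR adjusted p of 0.0742, and was called with only the 6 libraries compared (edgeR adjusted p = 0.00514).

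The promoters of 4 called genes are shown because they let the reader see the letters that RBPJ and HES proteins are known to prefer, TGGGAA (the RBPJ core) and CACNAG (an N box). Each is the RefSeq window of GRCm38.p6 from 250 bases before to 50 bases after the gene's start, 5′ to 3′ on the gene's strand, with matches on either strand in capitals. The Ctsk window (chr3:95498960-95499259, plus strand) holds neither motif. The Cd36 window (chr5:17835847-17836146, minus strand) holds 1 TGGGAA and 2 matches to CACNAG, and the Pf4 window (chr5:90772185-90772484, plus strand) and the Stab1 window (chr14:31168592-31168891, minus strand) hold 1 match to CACNAG each.
Ctsk: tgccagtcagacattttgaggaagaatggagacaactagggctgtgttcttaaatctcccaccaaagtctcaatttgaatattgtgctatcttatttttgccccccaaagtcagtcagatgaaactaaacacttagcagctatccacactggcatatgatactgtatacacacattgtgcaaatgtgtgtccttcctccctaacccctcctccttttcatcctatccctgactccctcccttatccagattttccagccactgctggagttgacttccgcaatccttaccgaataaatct
Cd36: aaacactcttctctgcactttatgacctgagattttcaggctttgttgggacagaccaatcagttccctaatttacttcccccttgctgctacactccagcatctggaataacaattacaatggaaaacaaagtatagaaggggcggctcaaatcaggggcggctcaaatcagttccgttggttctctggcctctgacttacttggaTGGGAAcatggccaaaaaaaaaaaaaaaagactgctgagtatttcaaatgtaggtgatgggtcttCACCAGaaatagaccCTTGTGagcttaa
Pf4: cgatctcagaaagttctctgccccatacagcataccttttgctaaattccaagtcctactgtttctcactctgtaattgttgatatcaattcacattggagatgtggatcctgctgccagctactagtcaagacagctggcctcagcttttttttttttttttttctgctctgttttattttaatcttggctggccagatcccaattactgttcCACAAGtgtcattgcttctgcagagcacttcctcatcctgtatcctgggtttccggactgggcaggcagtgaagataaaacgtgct
Stab1: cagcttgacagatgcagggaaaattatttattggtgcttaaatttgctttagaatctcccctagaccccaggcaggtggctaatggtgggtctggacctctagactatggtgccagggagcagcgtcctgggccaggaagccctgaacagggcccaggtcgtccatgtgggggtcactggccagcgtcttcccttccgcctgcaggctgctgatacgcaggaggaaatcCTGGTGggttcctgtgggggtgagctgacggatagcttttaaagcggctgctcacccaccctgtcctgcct
Of the 21 called genes 16 matched the table, with 26 windows. TGGGAA was in 8 of these (30.8%), in 23.1% of the 12408 windows of genes tested and in 25.6% of all 32851 windows. CACNAG was in 10 (38.5%), in 40.5% of the windows of genes tested and in 42.5% of all windows. Several windows of 1 gene overlap and are not independent. A match is a run of letters, not a measured binding site.

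Genes of macrophages made up the next group. Osteoclasts arise from macrophages, and cultures of this kind hold macrophages that have not fused. Stab1, which encodes the scavenger receptor stabilin 1, was at 559, 580 and 555 CPM in the control and 382, 372 and 340 CPM in the double-altered libraries. The log2 fold change was -0.64 ± 0.09 (SE), with an edgeR adjusted p of 0.00462. Cd36, a receptor for fatty acids and oxidised lipids, was at 242.7, 198 and 163 CPM and then 115, 125 and 135 CPM (log2 fold change -0.69 ± 0.11, edgeR adjusted p = 0.0149). Its control libraries spread widely, and the lowest of them was 1.21 times the highest double-altered library. Clec4d, a lectin of myeloid cells, was at 187 ± 15.5 CPM and then 137 ± 4.70 CPM (SD, n = 3 each), or -0.46 ± 0.08 on the log2 scale (edgeR adjusted p = 0.0156). Of 30 macrophage and monocyte genes tested 25 had negative values. Called lower were 3, beside 0.142% of all genes, and none was called higher. The list's median log2 fold change was -0.21, beside 0.00 over all genes tested. The fit of only the 6 libraries compared called 71 genes in all, so the share of 0.142% does not apply to it. In that fit 7 genes of the list were called lower. The added ones were Mrc1 (-0.64), Msr1 (-0.33), Siglec1 (-0.47) and C1qa (-0.45), which encode a mannose receptor, scavenger and sialic acid receptors and a complement subunit. Nt5dc2 lies antisense to Stab1, and whether the counting used strand is not stated. In bulk cultures fewer cells of a type and less RNA per cell cannot be told apart.

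The chemokine genes Pf4, Ccl6 and Ccl12 fell. Pf4 encodes platelet factor 4, which macrophages also make. It was at 46.7, 53.9 and 53.8 CPM in the control and 30.6, 35.4 and 28.5 CPM in the double-altered libraries. The log2 fold change was -0.72 ± 0.08 (SE), with an edgeR adjusted p of 0.000338, and it was called under all 20 alternative settings. Ccl6, a monocyte attractant, was at 237, 175 and 157 CPM and then 111, 114 and 131 CPM (log2 fold change -0.68 ± 0.11, edgeR adjusted p = 0.0156). Ccl12, also a monocyte attractant, was scarce, at 7.06, 4.61 and 3.56 CPM and then 1.78, 1.81 and 2.37 CPM. Its groups did not overlap, its log2 fold change was -1.34 ± 0.26, and its edgeR adjusted p of 0.0492 was at the edge of the threshold, which it passed under 8 of 19 alternatives. Of 24 genes tested for inflammatory cytokines and chemokines 15 had negative values and the median was -0.18, or -0.09 without double-altered replicate 1 and -0.10 without control replicate 1 or double-altered replicate 3. Ccl7 (-0.99 ± 0.24, edgeR adjusted p = 0.112) and Ccl2 (-0.63 ± 0.19, 0.259) were called with only the 6 libraries compared. Il1b, the cytokine interleukin 1 beta, had the highest value of the list, 0.89 ± 0.22, and was not called (edgeR adjusted p = 0.137).

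**Figure D2:**
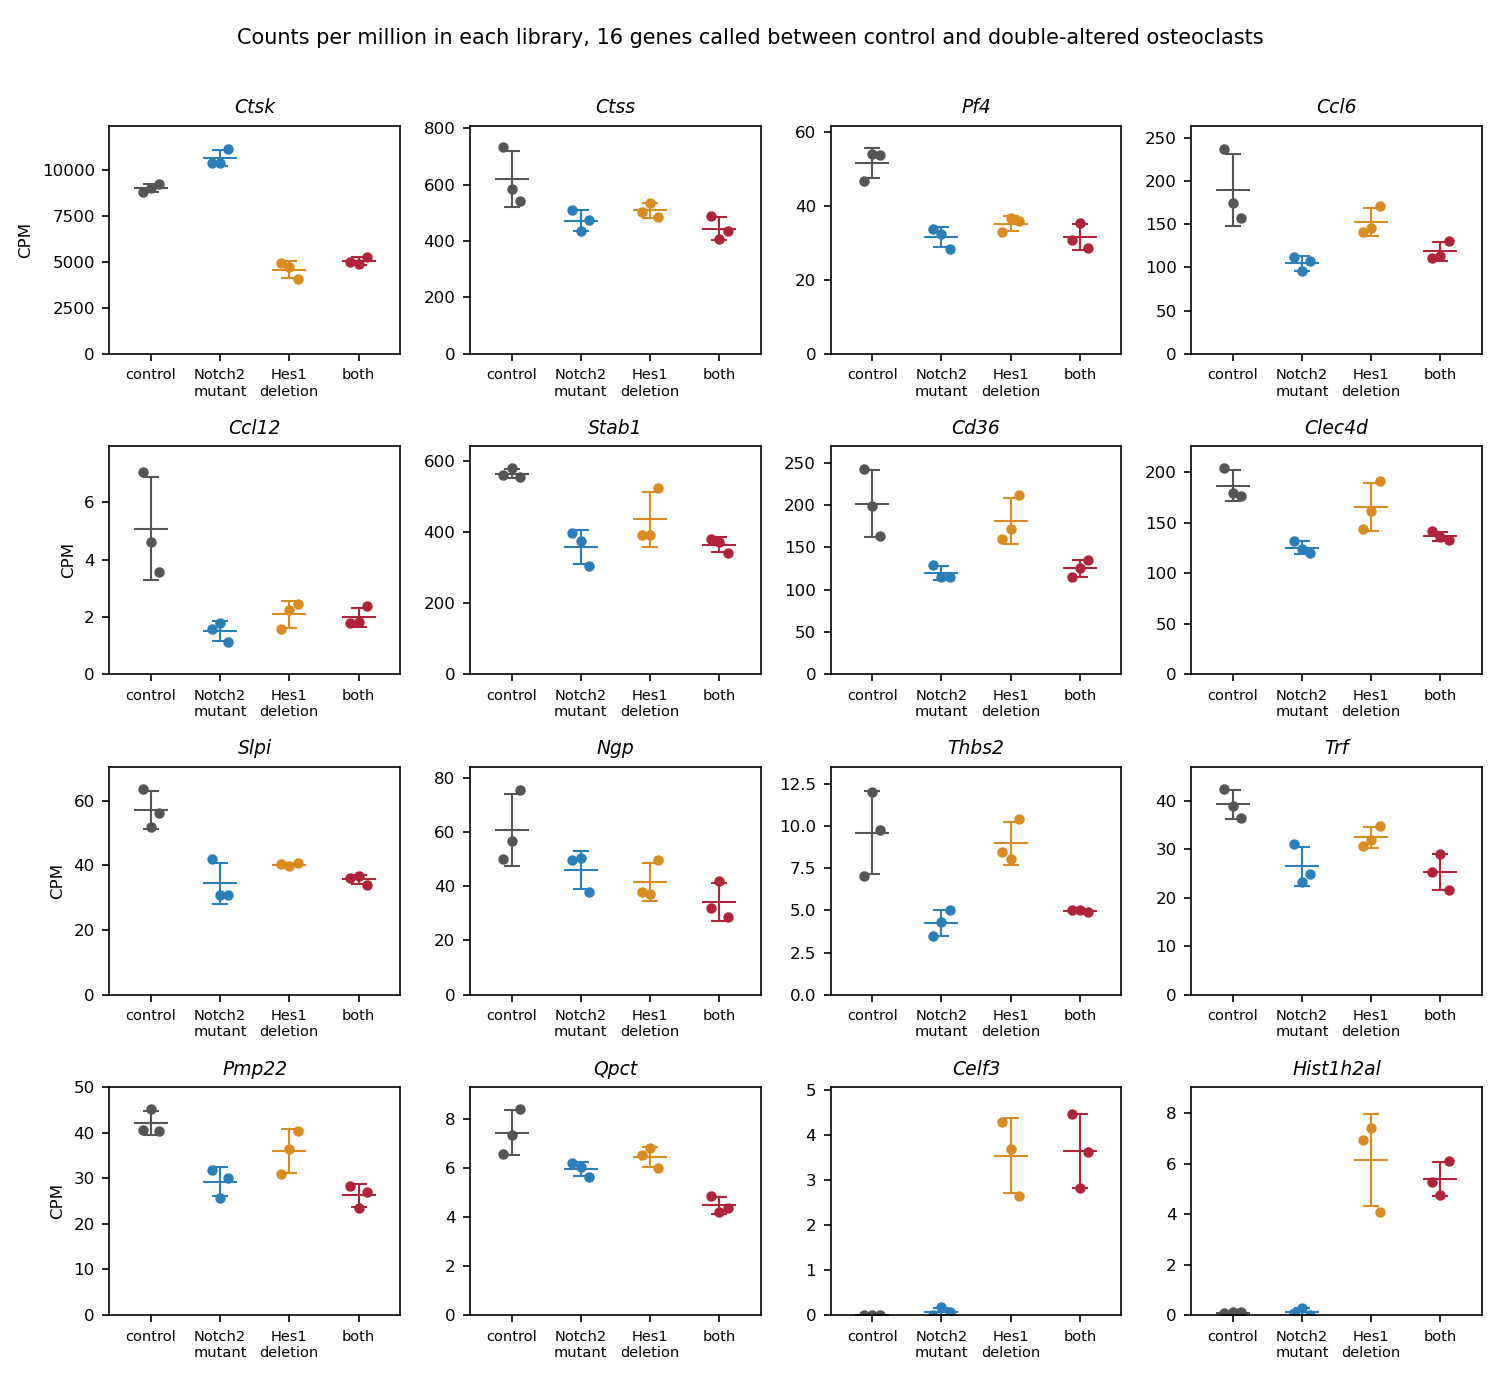
Each panel plots CPM of 1 gene on a linear axis from 0, with a point for each library and a bar and whiskers for the mean and SD of the 3 libraries. The groups are control (wild type Hes1 loxP), Notch2 mutant (Hes1 loxP), Hes1 deletion (wild type) and both (Notch2 mutant Hes1 deletion). In each of the 16 panels the points of control and both do not overlap. Ctsk, Celf3 and Hist1h2al differ between the groups labelled with and without the Hes1 deletion, while Thbs2 is low in both Notch2 mutant groups.

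Genes of neutrophil granules were lower as well. Ngp, which encodes neutrophilic granule protein, was at 50.2, 56.5 and 75.4 CPM in the control and 31.8, 42.0 and 28.7 CPM in the double-altered libraries (log2 fold change -0.84 ± 0.15, edgeR adjusted p = 0.0325). Camp, which encodes the antimicrobial peptide cathelicidin, was at 7.14, 9.59 and 12.1 CPM and then 5.21, 5.60 and 3.30 CPM (-1.05 ± 0.20, edgeR adjusted p = 0.0492), and was called under 6 of 20 alternatives. Control replicate 3 was the highest library for both genes. Of 16 neutrophil genes tested 10 had negative values and the median was -0.35. Called lower were 2, beside 0.142% of all genes. With only the 6 libraries compared, a fit that called 71 genes in all, Ltf (-0.82), Lcn2 (-0.54), Mmp8 (-0.46) and S100a8 (-0.47) were called too. All are products of neutrophils.

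The remaining lower genes have varied roles. Thbs2 encodes thrombospondin 2, a secreted protein of the extracellular matrix. It was at 7.06, 12.02 and 9.79 CPM in the control and 5.01, 5.05 and 4.92 CPM in the double-altered libraries (log2 fold change -0.97 ± 0.18, edgeR adjusted p = 0.0325). It was the 1 called gene of 17 matricellular genes tested, 13 of them negative, whose median was -0.24, or -0.13 without control replicate 1. The share called lower over all genes was 0.142%. Tnc, which encodes tenascin-C, was at 24.1 ± 1.74 CPM and 17.8 ± 1.22 CPM (SD, n = 3 each), with a log2 fold change of -0.45 ± 0.09 that was not called (edgeR adjusted p = 0.0615). Slpi, a secreted inhibitor of neutrophil proteases, was at 57.2 ± 5.85 CPM and then 35.7 ± 1.37 CPM (SD, n = 3 each), or -0.69 ± 0.09 on the log2 scale (edgeR adjusted p = 0.00314). Pmp22, which encodes a membrane protein known from myelin, fell from 42.2 ± 2.68 CPM to 26.3 ± 2.54 CPM (SD, n = 3 each), or -0.69 ± 0.10 on the log2 scale (edgeR adjusted p = 0.00462). Trf, which encodes the iron carrier transferrin, was at -0.64 ± 0.10, and Qpct, an enzyme that modifies the ends of secreted peptides, at -0.75 ± 0.14. Of the 75-base stretches of the longest Trf transcript, 78.6% also lie in an overlapping gene model, so the reads behind Trf are uncertain. Abcc3, Sh3bp5, Cd93 and Lhfpl2, named after their values were seen, lay between -0.49 and -0.43. They complete the 19, and the largest edgeR adjusted p among all 21 was 0.0492.

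Celf3 and Hist1h2al were the 2 genes that rose. Celf3 (ENSMUSG00000028137, chromosome 3, 94478295 to 94492198), which encodes an RNA-binding protein known from neurons, had 0 counts in the 3 control libraries and 4.46, 2.83 and 3.61 CPM in the double-altered libraries, 170 counts in all. Set against a floor of 3 counts summed over the control libraries, its level was 61.4-fold higher. It was 38.2-fold without control replicate 2 and 39.8-fold without control replicate 3. These values are smaller only because the floor stayed at 3 counts while the total of the control libraries shrank. The counting interval without the floor had a lower end of 49.4 and no upper end, and the edgeR adjusted p was 1.23e-05. The start of Celf3 lies 1.02 Mb from that of Ctsk, and Riiad1 lies antisense to Celf3. Hist1h2al (ENSMUSG00000091383, chromosome 13, 51202727 to 51203065), a histone H2A gene, had 5 counts in the control and 254 in the double-altered libraries. The levels had a ratio of 55 (counting interval 23.3 to 171), and the edgeR adjusted p was 3.24e-06. Both genes were called under all 19 alternatives in which they were tested. Of the 265 stretches of 75 bases in the Hist1h2al transcript, 121 (45.7%) also occur in other H2A genes. These include Gm20632, Gm20633 and Gm20634, which lie 0.740 to 0.746 Mb from Ctsk on chromosome 3, so the gene that gave the Hist1h2al reads is uncertain. Those 3 genes were at 0.96 ± 0.27, 1.56 ± 0.34 and -0.84 ± 0.36 (log2 fold change ± SE) and none was called.

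Ctsk, Celf3, Ctss and Notch2 lie on 1 stretch of chromosome 3, with the starts of Ctsk and Notch2 2.51 Mb apart. Within 5 Mb of the start of either gene 116 genes were tested and 3 were called, Ctsk, Ctss and Celf3. An unadjusted p under 0.05 was found for 30 of the 116 (25.9%), beside 7.26% of the 537 genes tested on the rest of the chromosome. The groups did not overlap for 32 of the 116 (27.6%), beside 12.5% on the rest of the chromosome and 14.2% of all genes. Over the autosomes this share ran from 11.1% on chromosome 4 to 16.5% on chromosome 15. BC021767 and Tmod4, named after their values were seen, lie 0.837 and 0.375 Mb before Ctsk. BC021767 was at -2.20 ± 0.46 and Tmod4, which encodes a cap protein of muscle actin filaments, at 2.74 ± 0.60, with edgeR adjusted p-values of 0.0742 and 0.0797. Tmod4 was at 0.0944 ± 0.0535 CPM in the control and 0.700 ± 0.0685 CPM in the double-altered libraries (SD, n = 3 each), so it was scarce in both. Celf3 was at means of 0 CPM in the control and 0.0746 CPM with the Notch2 mutation alone. It was at 3.53 CPM with the Hes1 deletion alone and 3.63 CPM with both alterations. Tmod4 had a log2 fold change of -0.23 with the Notch2 mutation alone, and of 2.98 when the Hes1 deletion was added to it. For BC021767 these values were -1.44 and -0.76. The sources used here do not name the alleles of this stretch in each group, and their part in these values was not tested.

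**Figure D3:**
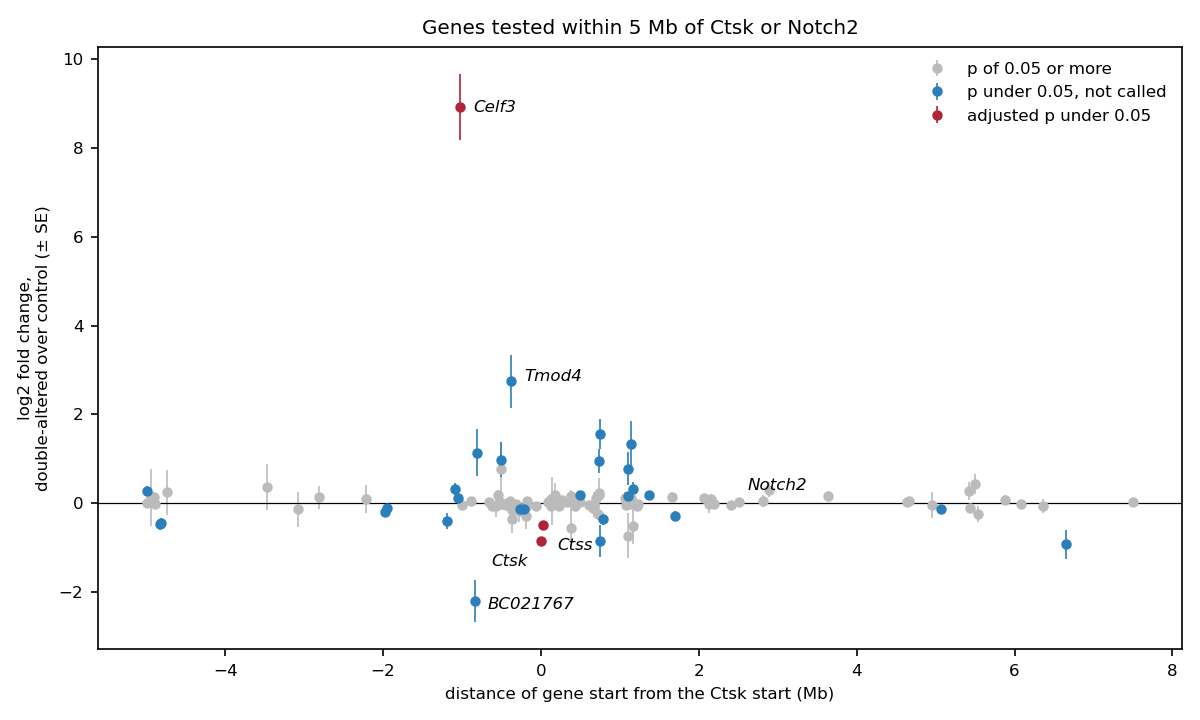
Each point is 1 of 116 genes tested within 5 Mb of the start of Ctsk or Notch2 on chromosome 3. The x axis is the distance of its start from the Ctsk start in Mb, and the y axis is the log2 fold change of double-altered over control libraries with its SE. Red points were called, blue points had an unadjusted p under 0.05. Celf3 lies far above the rest, Tmod4 and BC021767 lie at 2.74 and -2.20, and Notch2 lies at 0.02.

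The 19 lower genes were then set beside the single alterations. The 3 altered groups share the same control libraries, so their changes are given side by side and their likeness is not taken as a result. Over the 18 lower genes other than Ctsk, all of which also had negative values in both single alterations, the median log2 fold change was -0.68 in the double-altered, -0.55 in the Notch2 mutant and -0.30 in the Hes1 deletion libraries. Against the control, 14 of the 19 were called with the Notch2 mutation alone, where 0.776% of all genes were called and 0.634% were called lower. With the Hes1 deletion alone 2 were called lower, Ctsk and Pf4, where 0.0149% of genes were called lower, 0.0224% higher, and 5.93% had an unadjusted p under 0.05. Stab1, for example, was at 64.6% of the control mean with both alterations, 63.6% with the Notch2 mutation and 77.2% with the Hes1 deletion. Cd36 was at 62.1%, 59.4% and 89.8%, and Thbs2 at 51.9%, 44.2% and 93.5%. Qpct was at 60.3% with both, beside 80.1% and 86.8% with the single alterations.

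**Figure D4:**
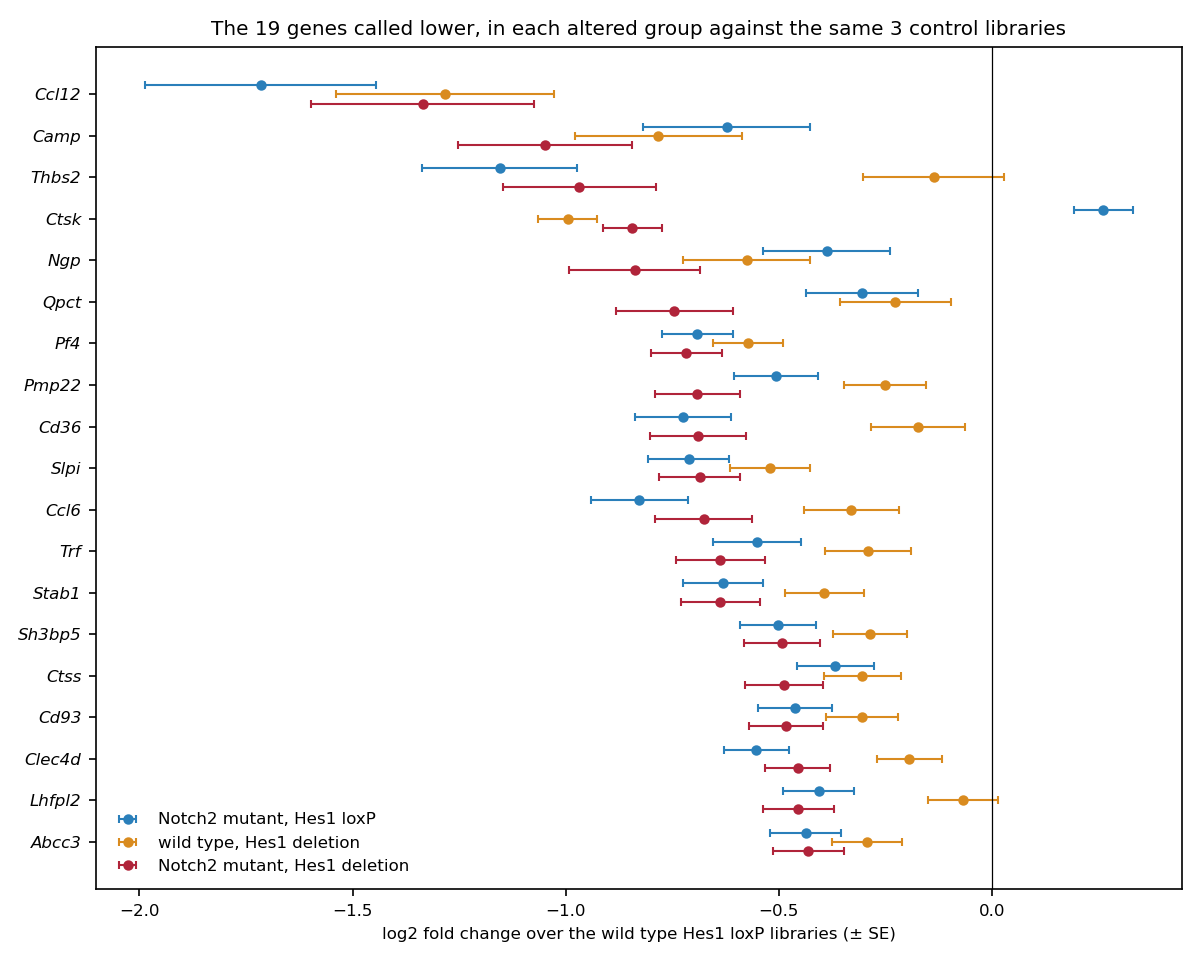
For each of the 19 genes called lower, points show the edgeR log2 fold change (x axis, with SE) of Notch2 mutant Hes1 loxP (blue), wild type Hes1 deletion (orange) and Notch2 mutant Hes1 deletion (red) over the same 3 control libraries. Red lies near blue for genes such as Cd36, Stab1 and Thbs2. Ctsk is the 1 gene with blue above 0.

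Direct steps from a single to the double alteration use different libraries on each side. When the Hes1 deletion was added to Notch2 mutant cells, 5 of 13403 genes were called (0.0373%), 4 higher (0.0298%) and 1 lower (0.00746%), and 4.76% had an unadjusted p under 0.05. Ctsk fell, and Celf3, Hist1h2al, Tnc and Gzmb rose. Among the 19 lower genes only Ctsk was called in this step, and 14 had a log2 difference smaller than 0.2 in size. The median of the 18 others was -0.01, ranging from -0.45 (Ngp) to 0.38 (Ccl12). When the Notch2 mutation was added to Hes1-deleted cells, 2 genes were called (0.0149%), Tnc and Timp3, both lower, and 6.69% had an unadjusted p under 0.05. None of the 19 was called in this step. The 18 others were all negative, from -0.83 (Thbs2) to -0.05 (Ccl12), with a median of -0.26. Lhfpl2, Cd36 and Thbs2 (edgeR adjusted p = 0.313 each) and Pmp22 (0.318) came nearest to the threshold. The 19 genes were chosen for low levels in the double-altered libraries, which both steps contain. That choice favours negative steps, so nothing is read from the signs and medians of these genes in either step.

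Tnc took a level between those of the single alterations. It was at 11.3, 10.4 and 11.8 CPM with the Notch2 mutation alone, 17.1, 19.2 and 17.0 CPM with both alterations, 22.7, 26.1 and 23.6 CPM in the control and 27.2, 26.9 and 32.5 CPM with the Hes1 deletion alone. No 2 of these groups overlapped. The double-altered cells lay above the Notch2 mutant cells by a log2 fold change of 0.64 ± 0.10 (edgeR adjusted p = 0.0169) and below the Hes1-deleted cells by -0.68 ± 0.09 (edgeR adjusted p = 0.00812). The first call was lost without Notch2 mutant Hes1 loxP replicate 1 or 2 or double-altered replicate 2 (edgeR adjusted p = 0.0609, 0.190 and 0.147). The second was lost without double-altered replicate 1 or 3 (edgeR adjusted p = 0.108 and 0.157). The gene 8030451A03Rik lies antisense to Tnc. Summed stromal and osteoblast genes had group means in the same order as Tnc, at 324 ± 71.1 CPM with the Notch2 mutation alone, 405 ± 55.04 CPM with both alterations, 449 ± 31.0 CPM in the control and 543 ± 31.9 CPM with the Hes1 deletion alone (SD, n = 3 each). With the mean log2 CPM of these genes as a covariate both Tnc calls were lost (edgeR adjusted p = 0.551 and 0.713). Timp3, an inhibitor of matrix metalloproteinases, was at 11.7 ± 2.14 CPM with the Hes1 deletion alone and 4.64 ± 0.358 CPM with both alterations (SD, n = 3 each), a log2 fold change of -1.33 ± 0.21 (edgeR adjusted p = 0.0452). That call was lost without any 1 of the 3 double-altered libraries (edgeR adjusted p = 0.159, 0.355 and 0.259), and also without control replicate 2, Notch2 mutant Hes1 loxP replicate 1 or wild type Hes1 deletion replicate 1 or 2. It was lost with the stromal covariate too (edgeR adjusted p = 0.713), which left 0 genes called in that step. The groups of that step did not overlap in this covariate, so it cannot be told apart from the Notch2 mutation there. Of the 75-base stretches of Timp3, 35.7% also lie in Syn3, which overlaps it. Gzmb, which encodes a protease of lymphocytes, had 4 counts with the Notch2 mutation alone and 72 with both alterations, so the level was 18.9 times as high (counting interval 7.06 to 71.1). The ratio was 54.4 when replicate 1 of the Notch2 mutant Hes1 loxP libraries was left out, and 12.05 when replicate 2 was. Its edgeR adjusted p was 0.0314, and the call was lost without replicate 2 or 3 of that group or replicate 1 or 3 of the double-altered group. The control libraries held 27 Gzmb counts. Against them the double-altered level was 2.89 times as high (counting interval 1.83 to 4.68), and Gzmb was not called in that comparison.

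The interaction asks whether the change in double-altered cells differs from the sum of the 2 single changes. By edgeR 0 of 13403 genes were called, with a smallest adjusted p of 0.9994, and 506 (3.78%) had an unadjusted p under 0.05. DESeq2, run without the edgeR filter, and limma-voom also called 0. Without wild type Hes1 deletion replicate 3 edgeR called 12. For Pf4 the single changes were -0.69 and -0.57 and the double change was -0.72, an interaction of 0.55 (edgeR adjusted p = 0.999). For Slpi they were -0.71, -0.52 and -0.69 (interaction 0.55, edgeR adjusted p = 0.999). Interactions were positive in 17 of the 19 lower genes, with an unadjusted p under 0.05 in 9, but these genes were chosen by a contrast that shares the control and double-altered libraries with the interaction, and nothing is read from that count.

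A check that avoids the shared control used the genes called in Notch2 mutant against control cells, and read them between the Hes1-deleted groups, which are different libraries. Of the 85 genes lower in the first comparison (0.634% of genes), 83 were also negative from Hes1-deleted to double-altered cells, beside 49.4% of all genes tested. Their median went from -0.50 to -0.21. All 19 genes higher in the first comparison (0.142%) were positive in the second, with medians of 0.31 and 0.14. Of the 104 genes 2 were called in the second comparison, Tnc and Timp3. Stromal and osteoblast genes had negative medians in both comparisons too, -0.60 and -0.51 over 21 genes. Their mean log2 CPM ran from 1.502 to 2.32 with the Notch2 mutation alone and from 2.57 to 2.75 in the control, and from 2.24 to 2.62 with both alterations and from 2.90 to 3.02 with the Hes1 deletion alone, without overlap in either comparison. The covariate above therefore cannot separate their level from the Notch2 mutation, and their part in these shifts was not tested.

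Of the 28 osteoclast effector and fusion genes tested, Ctsk was the 1 called in the fit of all 12 libraries. Of the other 27 osteoclast effector and fusion genes tested 20 had positive values, their median was 0.05, they ranged from -0.21 (Adam8, a membrane protease) to 0.22 (Acp5), and the smallest edgeR adjusted p was 0.347. Adam8 was called lower with only the 6 libraries compared (edgeR adjusted p = 0.0471) and without wild type Hes1 deletion replicate 3 (0.0187). Among the receptor and transcription factor genes of RANKL signalling, 19 of 29 had positive values with a median of 0.02, and Nfatc1 was at 0.10 ± 0.05 (edgeR adjusted p = 0.579). Of 18 subunits of the vacuolar ATPase, the proton pump that acidifies the resorption space, 15 had positive values with a median of 0.07, or 0.04 without double-altered replicate 3. For 6 of the 18 the groups did not overlap with the double-altered libraries higher (33.3%, beside 7.87% of all genes), and for 1 with them lower. Tcirg1, a subunit of the osteoclast pump, was at 0.17 ± 0.06, and Atp6v0a1 at -0.28 ± 0.08. None of these 29 and 18 genes was called.

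Notch pathway genes were not called. Of 29 genes of receptors, ligands and processing 18 had negative values, with a median of -0.04, or -0.01 without control replicate 2. Rbpj, which encodes the DNA-binding partner of Notch, had the smallest adjusted p. It was at 172, 171 and 159 CPM in the control and 149, 147 and 140 CPM in the double-altered libraries, without overlap, and its log2 fold change of -0.21 ± 0.04 had an edgeR adjusted p of 0.0742. Notch1 was at -0.40 ± 0.11 (edgeR adjusted p = 0.194). Of 23 genes in the list of Notch targets 10 were tested and 7 had negative values, with a median of -0.19, or -0.02 over the targets with a mean count of at least 50. Id1, a helix-loop-helix inhibitor, was at -0.64 ± 0.16 (edgeR adjusted p = 0.112). Hes3 and Ptcra had no counts in the 6 libraries.

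Most genes in 5 lists of metabolism had small positive values, and the mitochondrially encoded genes were mixed. Of 57 nuclear genes of oxidative phosphorylation 50 were positive with a median of 0.05, and the groups did not overlap for 19, all with the double-altered libraries higher (33.3%, beside a background of 7.87%). Of 23 genes of the tricarboxylic acid cycle 21 were positive, with a median of 0.06 (0.04 without control replicate 1), and 10 did not overlap, all higher. Of 23 genes of cholesterol synthesis and uptake 19 were positive with a median of 0.14. Fdps, a synthase of the pathway, had the highest value, 0.49 ± 0.41. Of 24 glycolysis genes 16 were positive, with a median of 0.03 and the highest value at Pdk2 (0.34 ± 0.11, edgeR adjusted p = 0.272), a kinase that restrains pyruvate dehydrogenase. None of these genes was called. The 10 mitochondrially encoded genes were 5 negative and 5 positive, with a median of 0.00 and none without overlap. Of 25 genes of fatty acid oxidation and lipid uptake 16 were positive and 9 negative, the median was 0.03, and Cd36 was called lower. Of 32 cell cycle genes 29 were negative with a median of -0.08, and of 20 genes of endoplasmic reticulum stress 16 were negative with a median of -0.11. For 8 of these 20 stress genes the groups did not overlap with the double-altered libraries lower (40%, beside 6.37% of all genes), and for 1 with them higher. None of the cell cycle and stress genes was called, and Hspa5, the chaperone BiP, was at -0.15 ± 0.05 (edgeR adjusted p = 0.347).

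**Figure D5:**
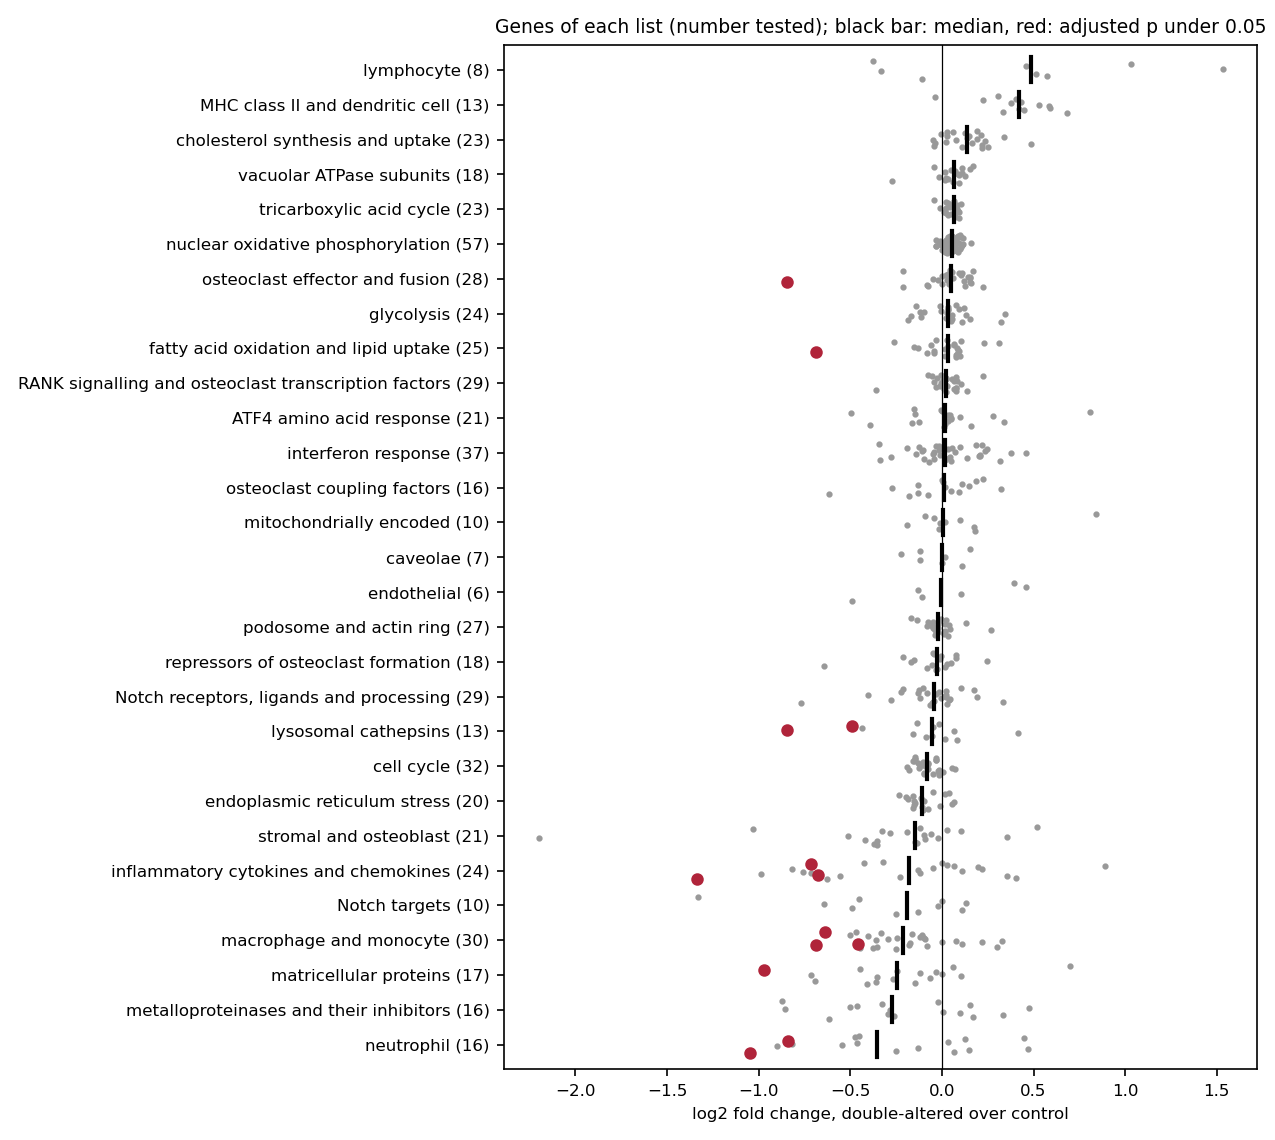
Each row is a gene list with the number of its genes tested. Points are log2 fold changes of double-altered over control libraries (x axis), red where the adjusted p was under 0.05, and the black bar is the list's median. Red points occur in the osteoclast, cathepsin, fatty acid, chemokine, macrophage, matricellular and neutrophil lists, all left of 0, while most lists have medians near 0.

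Markers of some other cells differed in summed level between the 2 groups. Summed over each list, macrophage and monocyte genes ran from 12950 to 14273 CPM in the control and from 11885 to 12725 CPM in the double-altered libraries, and neutrophil genes from 360 to 455 CPM and from 270 to 341 CPM. Neither range overlapped between the groups, and the sums include the called genes. Lymphocyte genes ran from 17.4 to 21.6 CPM and from 22.6 to 26.8 CPM. Stromal and osteoblast genes ran from 417 to 479 CPM and from 358 to 466 CPM and overlapped, with a median log2 fold change of -0.14 (-0.32 without double-altered replicate 1). With their mean log2 CPM as a covariate 12 genes were called, 11 of them among the 21, including Ctsk, Celf3, Hist1h2al, Pf4, Slpi, Pmp22 and Stab1. Genes of MHC class II and dendritic cells ran from 106 to 159 CPM and from 155 to 197 CPM, with 12 of 13 positive, a median of 0.42 and none called. For 7 of these 13 the groups did not overlap, all with the double-altered libraries higher (53.8%, beside 7.87% of all genes). Of 19 mast cell, erythroid and megakaryocyte genes 9 had no counts in the 6 libraries, among them Cpa3, Tpsb2 and Hbb-bs. In the endothelial list Cldn5 and Ptprb had none. Apart from the stromal covariate, the part of these cells in the results was not tested.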

How the data were processed

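RNA from 12 osteoclast cultures (4 groups of 3) was sequenced as stranded mRNA libraries, paired-end 75 bp, in 1 pool, per the labels' protocols. The authors deposited raw read counts per gene for each library, and the submitters' processing notes name HISAT2, SAMtools, Picard, HTSeq, DESeq2 and GRCm38. The sources used here do not give the strand setting or the annotation release. Summary rows that name no gene (15.8 to 19.0% of each file's total) were left out. Of 55414 gene IDs 52133 were named from GENCODE M21.

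Counts were tested with edgeR 4.0.16 (quasi-likelihood, TMM scaling, mean per group over all 12 libraries) in R 4.3.3. Genes needed a count of about 10 in 3 libraries and 15 in total by edgeR's filter, which left 13403. P-values were adjusted by Benjamini-Hochberg, with a threshold of 0.05. Errors of fold changes are the fold change over the root of its F value. DESeq2 1.42.0 (without the edgeR filter) and limma-voom 3.58.1 were alternatives. The code was tested on simulated data.

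Named genes were Notch2, Hes1, Ctsk, Celf3 and Hist1h2al, up to 12 called genes each way by size of change, and up to 4 per list by adjusted p, with up to 5 each way for the steps. Other names were added after their values were seen. The 31 lists, the groups compared and the rule were chosen with earlier results of these data known. Stretches shared with other genes were found with 75-base windows of the longest annotated transcript.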

Additional observations from a re-analysis of the deposited data

How the results depend on the processing

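The count of 21 genes between double-altered and control libraries was 309 with no filter on low counts, 13 with a mean count of at least 50, 80 with DESeq2 run without the edgeR filter (tool and filter changed together), 71 with only the 6 libraries, 12 with the stromal score as a covariate and 4 among genes with changes of 1 or more on the log2 scale. Leaving out 1 library gave 8 to 63. It was 8 without control replicate 2 or double-altered replicate 3, 12 without double-altered replicate 1, 13 without control replicate 1. The value of 63 came without wild type Hes1 deletion replicate 3. The interaction count of 0 was 63 with no filter and 0 to 12 without 1 library, 12 being without the same replicate. The step from Notch2 mutant to double-altered (5) was 110 with no filter, 2 with a mean count of at least 50, 3 with limma-voom, 3 with the stromal covariate and 3 to 6 without 1 library, 3 being without Notch2 mutant Hes1 loxP replicate 2. The step from Hes1-deleted to double-altered (2) was 138, 1, 1 and 0 under those settings, 1 among changes of 1 or more on the log2 scale, and 0 to 5 without 1 library (0 without double-altered replicate 1 or 3, 5 without wild type Hes1 deletion replicate 3). The cause of these shifts was not tested. Among the named genes recomputed under these settings, none that was called in the main or the alternative fit changed direction. Changes of sign were not counted for genes called in neither fit or for list medians. Same-numbered control and double-altered libraries deviated with correlations of 0.069, 0.061 and -0.031, and differently numbered ones with -0.0998 to 0.0484. Between control and Notch2 mutant Hes1 loxP libraries the same-numbered values were 0.098, 0.107 and 0.0766, and the others -0.0754 to -0.0202. Between control and wild type Hes1 deletion libraries the same-numbered values were 0.0206, -0.0770 and 0.00494. These values do not settle whether the number pairs libraries. With the replicate block 21 genes were called, 17 of them among the 21, and the counts for the interaction and the 2 steps were 0, 4 and 2. Between 6 and 20 alternatives kept each called gene past the threshold. Depth limits genes with few counts, such as Hes1 with 23 counts in the control.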

Other observations

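A few genes, chosen after their values were seen, split libraries within groups. Tdrd9, which encodes a helicase of the germ line, was at 50.8, 51.3 and 97.2 CPM in the control and 50.1, 6.44 and 4.30 CPM in the double-altered libraries. Wild type Hes1 deletion libraries held 4.05, 51.8 and 3.89 CPM, and Notch2 mutant Hes1 loxP libraries 106, 101 and 62.1 CPM. Clba1, which starts 0.837 Mb away on chromosome 12, followed the same libraries, at 25.2 CPM in double-altered replicate 1 and at 4.51 and 3.99 CPM in replicates 2 and 3. Neither gene was called between double-altered and control libraries.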
